A study of Mus musculus with 12 samples.

Results

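Resident macrophage genes are 9 genes taken by symbol: Cd163, Timd4, Lyve1, Folr2, Mrc1, F13a1, Cbr2, Csf1r and Adgre1. All 9 were found among the 17536 genes of the deposited table, and all 9 were among the 13489 genes left after a filter on low counts. Hearts were taken from outbred ICR mice 10 weeks old and sequenced as 12 RNA-seq libraries, in 4 groups of 3. AOS-FMT hearts came from mice given busulfan and FMT of an AOS kind, for which the label gives AOS at 10 mg/kg, and control-FMT hearts from mice given busulfan and FMT of a control kind. Busulfan hearts came from mice given busulfan at 20 mg/kg, and control hearts from mice whose treatment is labelled control. Busulfan, an alkylating drug that depletes blood-forming cells, is thus shared by every group but control, and the labels write it as B, with no dose, for both FMT groups. FMT and AOS are written as the labels give them. The labels number the replicates without saying that they are separate mice, so the p-values rest on the spread among numbered samples and may cover technical spread alone. They do not say which chambers of the heart were taken.

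Macrophages are the most common immune cells of the resting heart. In the mouse, one resident population renews itself locally and carries TIM4, LYVE1 and folate receptor beta on its surface, the products of Timd4, Lyve1 and Folr2, while others are replaced from blood monocytes that carry CCR2. Resident macrophages clear dead cells and cell debris, and many macrophages depend on signalling through the CSF1 receptor. The members fall into uptake receptors (Cd163, Timd4, Lyve1, Folr2, Mrc1), enzymes (F13a1, Cbr2) and genes shared by macrophages in general (Csf1r, Adgre1).

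The promoters of Cd163 and Timd4, the members whose control libraries stood apart from all others, are shown beside that of Mrc1, whose libraries overlapped between most groups. Each window runs from 250 bases before to 50 bases after the annotated start, 5′ to 3′ on the strand of the gene, from RefSeq on GRCm38.p6, the assembly that mm10 denotes. Capitals mark matches, on either strand, to letters bound by macrophage factors: GAGGAA for PU.1 and TGCTGAC for MAF.
Cd163, chr6:124304401-124304700, plus strand: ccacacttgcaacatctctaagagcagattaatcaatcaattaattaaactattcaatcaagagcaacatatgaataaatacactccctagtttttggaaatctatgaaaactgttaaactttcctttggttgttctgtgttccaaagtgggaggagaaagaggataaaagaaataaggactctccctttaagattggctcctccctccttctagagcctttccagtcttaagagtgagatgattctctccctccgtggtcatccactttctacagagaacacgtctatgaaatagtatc
Timd4, chr11:46810549-46810848, plus strand: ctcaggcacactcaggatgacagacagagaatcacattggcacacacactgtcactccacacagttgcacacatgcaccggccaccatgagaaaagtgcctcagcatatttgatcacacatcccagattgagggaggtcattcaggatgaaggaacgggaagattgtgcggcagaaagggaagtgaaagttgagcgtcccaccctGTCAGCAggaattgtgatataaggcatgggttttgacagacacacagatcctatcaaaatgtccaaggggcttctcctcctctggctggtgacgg
Mrc1, chr2:14229164-14229463, plus strand: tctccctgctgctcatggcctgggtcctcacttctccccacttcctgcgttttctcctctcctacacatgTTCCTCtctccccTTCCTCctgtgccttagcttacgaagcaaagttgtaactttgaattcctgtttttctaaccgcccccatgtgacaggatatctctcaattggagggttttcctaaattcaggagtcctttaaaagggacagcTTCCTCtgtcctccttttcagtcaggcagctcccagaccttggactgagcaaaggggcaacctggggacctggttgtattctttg
Windows of 6 of the 9 members were searched, 8 windows in all. Lyve1 and Adgre1 had no promoter entry, and Csf1r was left out of the search, so the counts of windows do not cover these genes. GAGGAA was found in 4 of the 8 windows, against 28.28% of 32851 promoters of the same length: 3 times in Mrc1, in both windows of F13a1 and in Cbr2. TGCTGAC was found in 2 windows, those of Cbr2 and Timd4, against 4.673% of promoters. The letters TTGCNNAA, bound by C/EBP factors, and the TATA box TATAAA were in none of the 8 windows, against 10.8% and 13.62% of promoters. No match overlapped another. These are letter matches in short windows and were not tied to the values below. On this build the annotated gene of Cd163 runs from 124304636 to 124330529 on chromosome 6 and that of Timd4 from 46810786 to 46844333 on chromosome 11. Lyve1 lies on chromosome 7 at 110850607 to 110862953, and Folr2 on the same chromosome at 101839988 to 101857190. All 9 members are protein-coding, and no gene that overlaps one of them was among the genes of the deposited table.

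Library totals ran from 11333650 to 14335688 estimated counts. Heart muscle genes such as Myh6 and Tnnt2 were abundant in each library, and the list of 7 cardiomyocyte genes summed to 69963 CPM (estimated counts scaled to a common library size with TMM factors) or more. Macrophage transcripts were present: C1qa, a complement subunit made by macrophages, had 77.5 to 167 CPM, and all 25 shared macrophage genes listed passed the filter. This does not show which cells the reads of the members came from. Libraries differed within groups in atrial transcripts. Bmp10, Myl7, Myl4 and Sln, averaged in log2 CPM into an atrial score, gave 6.58, 10.4 and 9.50 in AOS-FMT, 3.73, 1.01 and 6.31 in control-FMT, 0.47, 4.11 and 7.28 in busulfan and 6.06, 10.3 and 9.88 in control hearts. A liver score over Alb, Apoa1, Apoa2, Ttr and Fgb did not overlap between control, at -1.38 to -0.49, and the other libraries, at 0.88 or more. Both scores are set beside the members where they move together.

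Per unit of transcript length, Cbr2 was the most abundant member, with a mean of 127 TPM (length-corrected values, as the authors deposited them) over the 12 libraries. Folr2 followed with 34.8 TPM, then F13a1 with 23.8, Csf1r with 23.6, Mrc1 with 11.4, Lyve1 with 10.2, Adgre1 with 8.62, Timd4 with 4.75 and Cd163 with 2.63 TPM. The highest single library of Cd163, at 6.55 TPM, lay below the lowest of Mrc1, at 7.78 TPM. F13a1 and Csf1r did not differ in mean beyond their spread, with ranges of 16.6 to 37.6 and 14.1 to 32.6 TPM. The least abundant members rested on few reads, 12 to 264 per library for Cd163 and 16 to 109 for Timd4.

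Cd163, the receptor through which macrophages take up complexes of haemoglobin and haptoglobin, had its highest values in control hearts. It had 8.47, 9.10 and 7.75 CPM in AOS-FMT, 5.80, 0.98 and 5.78 in control-FMT, 4.18, 3.05 and 6.68 in busulfan, and 17.8, 20.1 and 17.1 CPM in control hearts. Every library given busulfan lay below every control library, and the AOS-FMT libraries lay above those of busulfan and of control-FMT without overlap. The mean was 3.94-fold lower in busulfan than in control (log2 fold change -1.98 ± 0.45 SE, 95% interval -2.97 to -0.99, edgeR adjusted p = 0.229, rank 60 by p of 13489 genes). In control-FMT it was 4.37-fold lower than in control (-2.13 ± 0.45, adjusted p = 0.191), and in AOS-FMT 2.17-fold lower (-1.12 ± 0.43, adjusted p = 0.490). AOS-FMT was 1.82-fold above busulfan (0.86 ± 0.45, adjusted p = 0.403) and 2.01-fold above control-FMT (1.01 ± 0.45, adjusted p = 0.792), while control-FMT and busulfan overlapped (-0.15 ± 0.47). Replicate 2 of control-FMT, with 12 reads of Cd163, was far below the other libraries of its group. Without it the difference between control-FMT and control was -1.66, that between AOS-FMT and control-FMT 0.54, and Cd163 was called lower in busulfan than in control (adjusted p = 0.0185). DESeq2 called Cd163 with all libraries, at an adjusted p of 0.00362 for busulfan against control and 0.000814 for control-FMT against control. Over all alternatives the adjusted p ran from 0.00362 to 0.992 for busulfan against control and from 0.000814 to 0.946 for control-FMT against control.

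Timd4 encodes TIM4, which binds phosphatidylserine on dead cells. Its libraries had 2.85, 3.87 and 3.29 CPM in AOS-FMT, 2.82, 1.31 and 3.02 in control-FMT, 3.05, 2.72 and 3.64 in busulfan, and 4.79, 8.28 and 8.17 CPM in control hearts. As with Cd163, every control library lay above every other library, but the lowest of them, replicate 1, was close to the rest, and AOS-FMT overlapped busulfan and control-FMT. The mean was 2.11-fold lower in AOS-FMT than in control (-1.08 ± 0.30, adjusted p = 0.249), 2.97-fold lower in control-FMT (-1.57 ± 0.31, adjusted p = 0.113, rank 25 by p) and 2.26-fold lower in busulfan (-1.18 ± 0.30, adjusted p = 0.246). These comparisons share the control libraries. The difference between AOS-FMT and busulfan was 0.10 ± 0.31, with a 95% interval of -0.58 to 0.77. DESeq2 called Timd4 in busulfan (adjusted p = 0.0452) and in control-FMT (adjusted p = 0.00212) against control, but not in AOS-FMT (adjusted p = 0.0744). On the deposited TPM the groups overlapped: Timd4 had 2.81, 3.94 and 5.23 TPM in AOS-FMT, against 4.37, 11.8 and 8.81 TPM in control hearts.

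**Figure D1:**
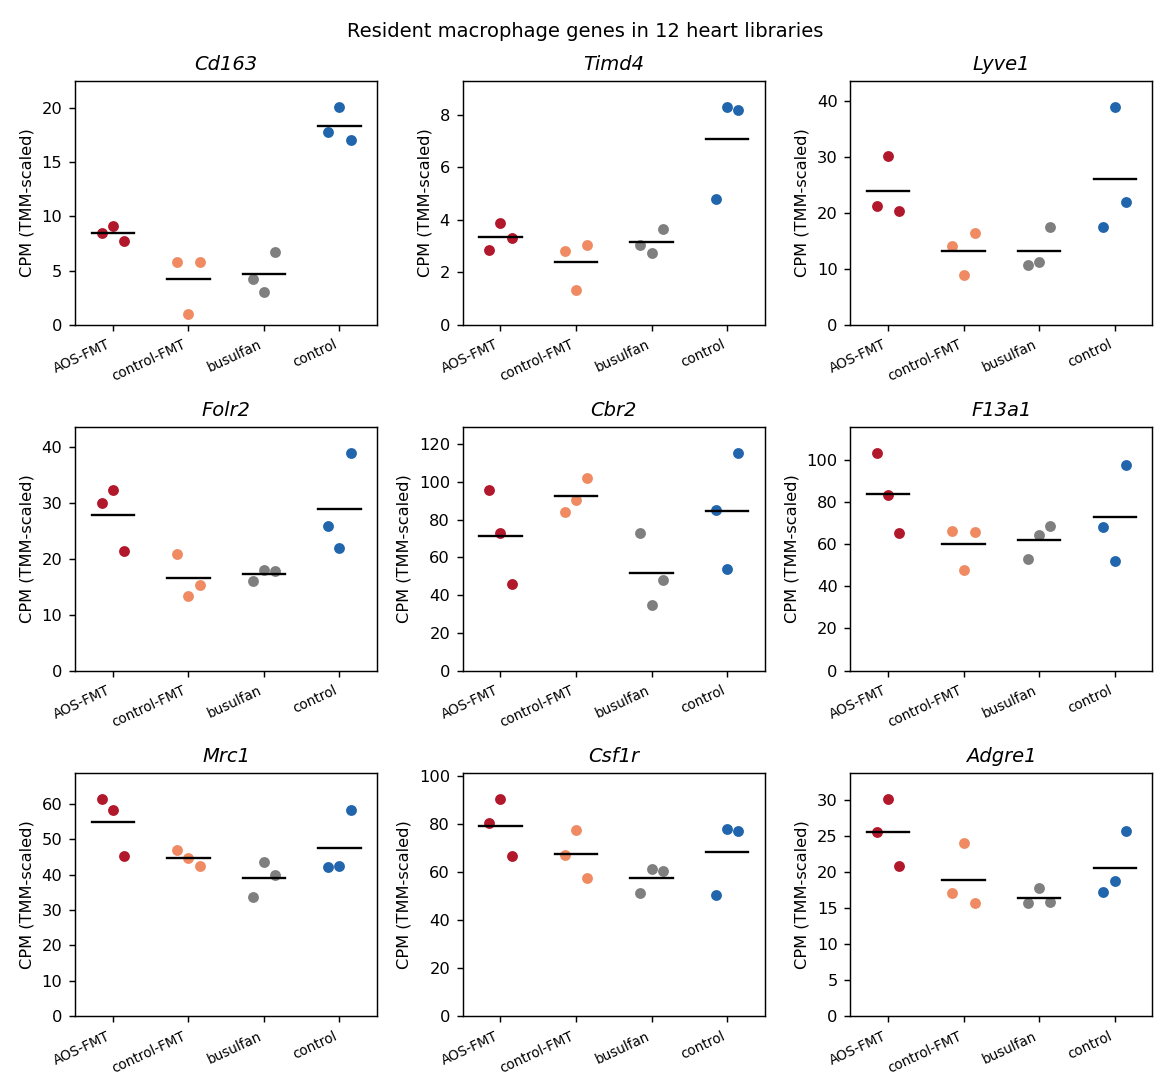
Level of each of the 9 genes in each library, in CPM scaled by TMM on a linear axis from 0, by group. Points are libraries (3 a group) and bars are group means. For Cd163 and Timd4 the 3 control libraries lie above the other 9, while for Mrc1, Csf1r and Adgre1 control overlaps each other group and AOS-FMT lies above busulfan.

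Lyve1 encodes a hyaluronan receptor of resident macrophages and of lymphatic vessels. It had 21.2, 30.1 and 20.3 CPM in AOS-FMT, 14.03, 8.92 and 16.3 in control-FMT, 10.7, 11.2 and 17.4 in busulfan, and 17.5, 38.8 and 21.9 CPM in control hearts. Control and AOS-FMT hearts overlapped, and both groups lay above busulfan and control-FMT, although busulfan replicate 3 and control replicate 1 were nearly equal. Busulfan differed from control by -0.99 ± 0.32 on the log2 scale (adjusted p = 0.336), and the value was -0.996 ± 0.32 for control-FMT against control (adjusted p = 0.438). AOS-FMT was 1.82-fold above busulfan (0.86 ± 0.32, adjusted p = 0.306) and 1.83-fold above control-FMT (0.87 ± 0.32, adjusted p = 0.763). AOS-FMT and control differed by -0.13 ± 0.31 (95% interval -0.82 to 0.56), a sign that turned on TPM (0.13).

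Folr2, the beta folate receptor, showed the same order of groups with less spread. It had 29.9, 32.4 and 21.4 CPM in AOS-FMT, 20.9, 13.3 and 15.3 in control-FMT, 16.0, 18.1 and 17.8 in busulfan, and 25.9, 21.9 and 38.9 CPM in control hearts. No AOS-FMT or control library overlapped a busulfan or control-FMT library. The mean was 1.67-fold lower in busulfan than in control (-0.74 ± 0.23, adjusted p = 0.299) and 1.75-fold lower in control-FMT (-0.81 ± 0.23, adjusted p = 0.379). It was 1.62-fold higher in AOS-FMT than in busulfan (0.69 ± 0.22, adjusted p = 0.296) and 1.69-fold higher than in control-FMT (0.76 ± 0.22, adjusted p = 0.706). AOS-FMT and control differed by -0.05 ± 0.22 (95% interval -0.53 to 0.43), which was 0.17 on TPM and 0.05 with no scaling beyond library size. Control-FMT and busulfan differed by -0.07 ± 0.23 for Folr2 and by -0.00 ± 0.33 for Lyve1, also with signs that depended on the scaling.

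Mrc1, the mannose receptor, had 61.4, 58.3 and 45.2 CPM in AOS-FMT, 47.0, 44.6 and 42.5 in control-FMT, 33.6, 43.6 and 39.7 in busulfan, and 42.1, 42.4 and 58.2 CPM in control hearts. AOS-FMT lay above busulfan without overlap (log2 fold change 0.49 ± 0.15, adjusted p = 0.286), and every other pair of groups overlapped. Busulfan against control was -0.29 ± 0.15, with a 95% interval of -0.62 to 0.04.

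F13a1 encodes the A subunit of coagulation factor XIII, a transglutaminase made by macrophages and by the platelet lineage. It had 103, 83.3 and 65.3 CPM in AOS-FMT, 66.2, 47.5 and 65.5 in control-FMT, 52.7, 64.3 and 68.3 in busulfan, and 68.2, 51.9 and 97.6 CPM in control hearts. All pairs of groups overlapped, and the largest difference was 0.49 ± 0.23, between AOS-FMT and control-FMT (adjusted p = 0.797). Cbr2, a carbonyl reductase, had 95.6, 72.9 and 45.8 CPM in AOS-FMT, 84.3, 90.7 and 102 in control-FMT, 73.0, 34.7 and 48.3 in busulfan, and 85.0, 53.9 and 115 CPM in control hearts. Control-FMT lay above busulfan without overlap (0.83 ± 0.34, adjusted p = 0.999), unlike the uptake receptors, and Cbr2 was the one member with a higher mean in control-FMT than in AOS-FMT (-0.37 ± 0.34 for AOS-FMT against control-FMT, adjusted p = 0.848).

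Csf1r encodes the receptor for the growth factors made by Csf1 and Il34, and it had 80.3, 90.5 and 66.9 CPM in AOS-FMT, 67.0, 77.4 and 57.7 in control-FMT, 51.5, 61.4 and 60.3 in busulfan, and 50.4, 77.9 and 77.3 CPM in control hearts. Adgre1, the adhesion receptor used as a general marker of mouse macrophages, had 25.5, 30.1 and 20.8 CPM in AOS-FMT, 17.1, 24.0 and 15.7 in control-FMT, 15.7, 17.8 and 15.9 in busulfan, and 17.2, 18.8 and 25.6 CPM in control hearts. For both genes control overlapped each other group, and AOS-FMT lay above busulfan without overlap. AOS-FMT against busulfan was 0.46 ± 0.17 for Csf1r (adjusted p = 0.306) and 0.63 ± 0.19 for Adgre1 (adjusted p = 0.284). Busulfan against control was -0.25 ± 0.17 for Csf1r (95% interval -0.62 to 0.12) and -0.32 ± 0.19 for Adgre1 (-0.73 to 0.10), so a difference as large as that of Cd163 lay outside both intervals. In bulk tissue, fewer macrophages and less RNA of a gene per macrophage cannot be told apart.

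Counted over the members, busulfan against control had 9 of 9 log2 fold changes below 0, with a median of -0.70 against -0.01 over all genes tested. edgeR called 0 of the 9 at an adjusted p under 0.05, where 0.0593% of all genes were called, limma-voom 0 and DESeq2 2 (Cd163 and Timd4). Shares of genes called are those of edgeR here and below. DESeq2 called more genes than edgeR for busulfan against control, so its counts cannot be set against those shares. At an unadjusted p under 0.05, 4 members were lower (Cd163, Timd4, Lyve1 and Folr2), against 5.78% of all genes, and the same 4 did not overlap between groups, against 6.38%. None was higher at that p, against 5.54% of genes, or higher without overlap, against 7.74%. The count of 4 became 6 without control replicate 1 and 2 with the atrial or the liver score as a covariate. The median became -0.43, with 8 members below 0, without control replicate 3, -0.36 with the atrial score and 0.01, with 4 below 0, with the liver score. Control-FMT against control, which shares the control libraries, had a median of -0.28, with 8 members below 0 (5 on TPM). Here edgeR called 0 members and 0% of all genes, limma-voom 0 members and DESeq2 2, and 4 members were lower at an unadjusted p under 0.05, against 3.74% of all genes. Those 4 were again the ones without overlap, against 4.71% of genes, and 0 were higher at that p (4.46% of genes) or higher without overlap (7.16%). The median became -0.02, with 5 below 0, without control replicate 3 and -0.47 without control replicate 2. With the atrial score it was -0.17, and with the liver score 0.11, with 2 members lower and 1 higher at that p. AOS-FMT against control had a median of -0.05, with 5 members below 0 (3 on TPM), and edgeR, limma-voom and DESeq2 each called 0 members, where edgeR called 0.0815% of genes, 0.0741% as higher and 0.00741% as lower. Cd163 and Timd4 were lower at an unadjusted p under 0.05, against 3.44% of genes, and without overlap, against 3.80%. No member was higher at that p (5.43% of genes) or higher without overlap (6.63%). The 2 lower members became 1 without AOS-FMT replicate 1, AOS-FMT replicate 3 or control replicate 2, and 0 with the liver score as a covariate or on log2(TPM + 0.1), each with 2 higher. On log2(TPM + 1) 2 were lower and 2 higher, without control replicate 3 another 3 were higher and without AOS-FMT replicate 3 another 1. The median became 0.22 without control replicate 3, 0.11 without AOS-FMT replicate 3, 0.01 without control replicate 2, -0.13 without control replicate 1 and -0.18 without AOS-FMT replicate 2.

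Among the groups given busulfan, AOS-FMT against busulfan had all 9 members above 0, with a median of 0.49 against 0.00 over all genes. edgeR, limma-voom and DESeq2 each called 0 members, where edgeR called 0.0445% of genes. At an unadjusted p under 0.05, 5 members were higher (Folr2, Lyve1, Mrc1, Csf1r and Adgre1), against 7.80% of genes, and 6 did not overlap, the same 5 and Cd163, against 10.3%. None was lower at that p (5.85% of genes) or lower without overlap (10.9%). The 5 became 3 without AOS-FMT replicate 2 and 2 with the atrial score as a covariate, where the median was 0.34 (0.76 with the liver score). AOS-FMT against control-FMT had a median of 0.49, with 8 members above 0. Each of the 3 tools called 0 members, where edgeR called 0.0297% of genes, and 4 were higher at an unadjusted p under 0.05 (Cd163, Folr2, Lyve1 and Adgre1), against 3.88%. In 3 of these the groups did not overlap, against 6.52% of genes, and 0 were lower at that p (2.35% of genes) or lower without overlap (7.29%). The 4 became 1 without AOS-FMT replicate 2, 2 without AOS-FMT replicate 1, control-FMT replicate 2 or busulfan replicate 1, and 0 with the atrial score as a covariate, where the median was 0.22 (0.78 with the liver score). Control-FMT against busulfan had a median of -0.00. Each tool called 0 members and edgeR called 0% of genes, with Cbr2 the one member higher at an unadjusted p under 0.05, against 1.76%, and the one without overlap, against 5.41%. None was lower at that p (0.89% of genes) or lower without overlap (6.58%), and Cbr2 no longer passed without control-FMT replicate 2 or 3 or busulfan replicate 2 or 3. The test of any difference among the 4 groups gave 0 calls among the members by edgeR, against 0.104% of genes, and 0 by limma-voom. DESeq2 gave 4 (Cd163, Timd4, Folr2 and Lyve1), a count that the edgeR share is no background for. At an unadjusted p under 0.05 edgeR gave 6 members, against 10.2% of genes.

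**Figure D2:**
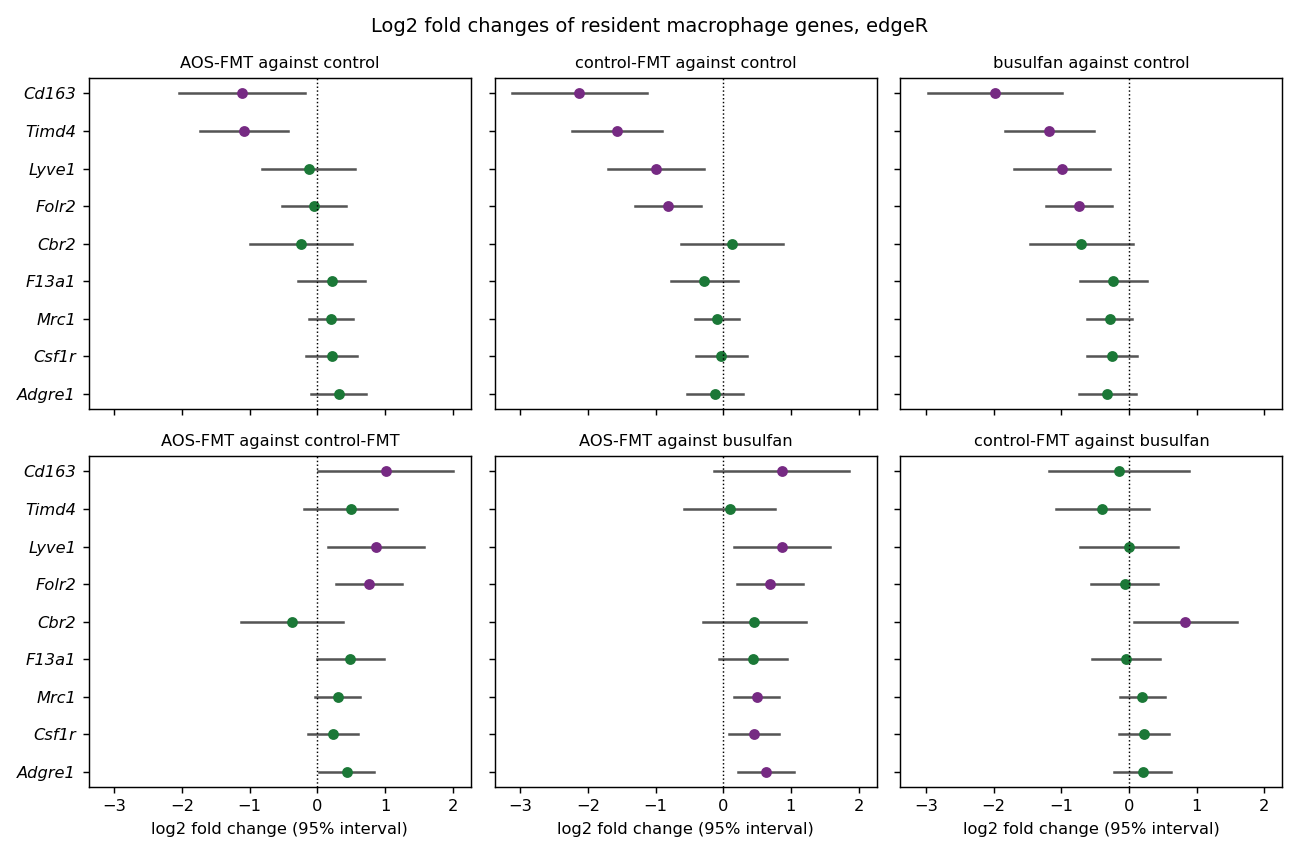
Log2 fold change of each of the 9 genes in the 6 comparisons, from edgeR, with 95% intervals; the horizontal axis is in log2 units and the dotted line marks no difference. Purple points are genes whose 3 libraries of one group do not overlap the 3 of the other, and green points are genes whose groups overlap. Against control the points spread out, with Cd163 and Timd4 lowest, while for AOS-FMT against busulfan all 9 lie right of the line.

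Each member was also set against Csf1r in the same library, a ratio that no scaling between libraries can alter. Reads of Cd163 came to 10.0% to 11.6% of the Csf1r reads in AOS-FMT, 1.27% to 10.0% in control-FMT, 4.97% to 11.1% in busulfan and 22.1% to 35.3% in control hearts. For Timd4 they came to 3.55% to 4.92% in AOS-FMT, 1.69% to 5.23% in control-FMT, 4.42% to 6.03% in busulfan and 9.51% to 10.6% in control hearts. Control thus stayed apart from the other 9 libraries for both genes. Set against Adgre1 they did so too: Cd163 came to 4.10% to 42.0% in the libraries given busulfan and 66.6% to 107% in control hearts, and Timd4 to 5.46% to 22.9% in the libraries given busulfan and 27.9% to 44.1% in control hearts. Relative to Csf1r, Folr2 came to 32.0% to 37.3% in AOS-FMT and 29.4% to 31.1% in busulfan, without overlap, and to 28.1% to 51.4% in control hearts, which overlapped both. The ratio of Mrc1 to Csf1r averaged 69.4% ± 6.2 in AOS-FMT, 67.1% ± 8.4 in control-FMT, 67.4% ± 3.2 in busulfan and 71.1% ± 15.02 in control hearts (SD, n = 3 each). That of Adgre1 averaged 32.1% ± 1.1 in AOS-FMT, 27.9% ± 2.8 in control-FMT, 28.6% ± 2.1 in busulfan and 30.4% ± 5.5 in control hearts. For Mrc1 and Adgre1 relative to Csf1r every pair of groups thus lay within the spread between replicates, except for Adgre1 in AOS-FMT, which did not overlap control-FMT or busulfan.

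**Figure D3:**
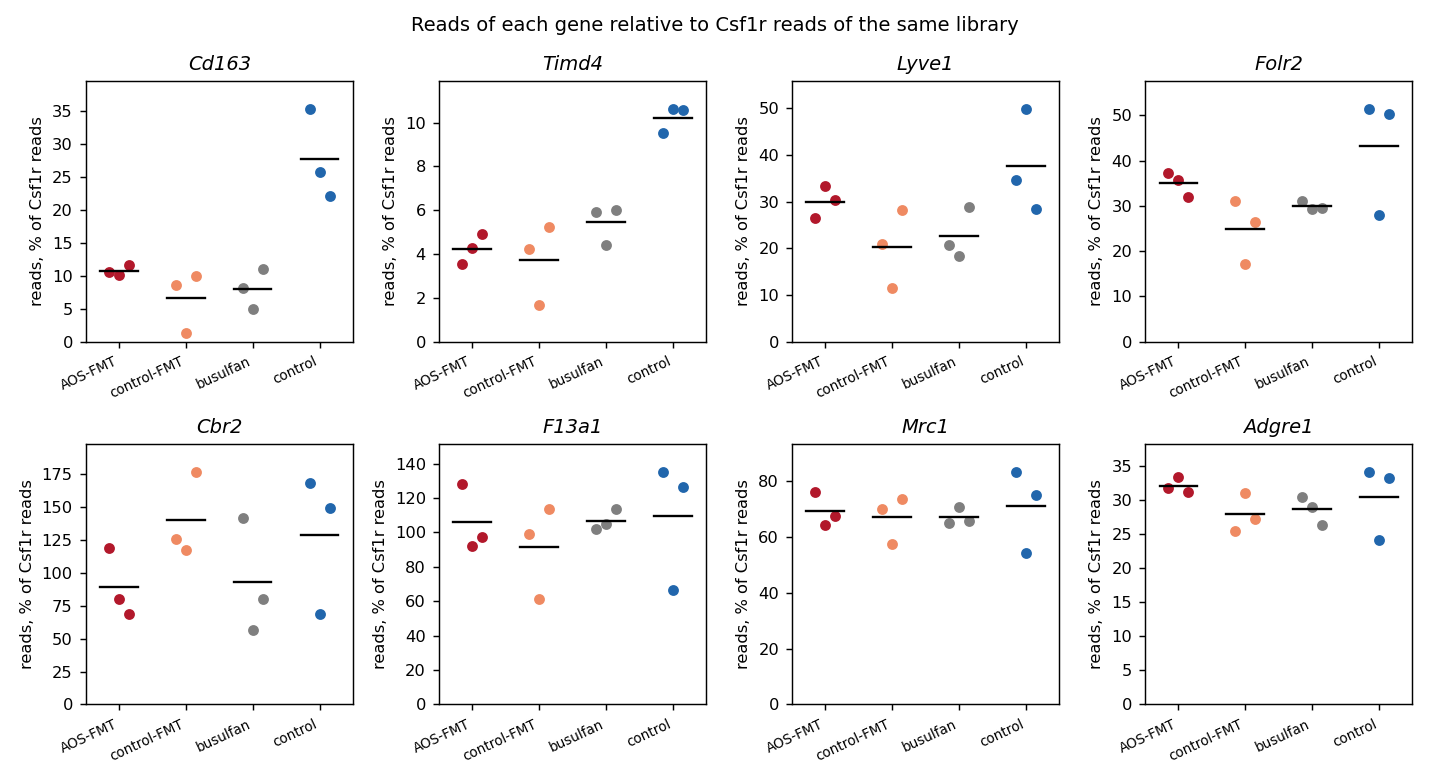
Reads of 8 genes as a percentage of the Csf1r reads of the same library, by group, on linear axes from 0; points are libraries and bars are group means. Control libraries lie at 22.1% or more for Cd163 and 9.51% or more for Timd4, above the other 9 libraries, whereas the ratios of Mrc1 and F13a1 overlap across all groups.

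Members differed in how closely they went together. Over the 12 libraries, which share group effects, depth and atrial content, log2 CPM of Cd163 went with Timd4 (Pearson r = 0.91, Spearman rho = 0.87, n = 12) and with Lyve1 (r = 0.82, rho = 0.91). With Csf1r it had r = 0.06, rho = 0.27 and, without the 2 libraries farthest from its median, r = 0.24. With Adgre1 it had r = 0.07, rho = 0.39 and r = 0.47 without those libraries. Csf1r went with Adgre1 (r = 0.86, rho = 0.82), Mrc1 with Adgre1 (r = 0.85, rho = 0.80) and Folr2 with F13a1 (r = 0.83, rho = 0.69). Taken as deviations from the group means, r was 0.81 for Cd163 and Timd4, 0.66 for Cd163 and Lyve1, 0.81 for Timd4 and Lyve1, 0.79 for Csf1r and Adgre1 and 0.87 for Folr2 and F13a1. Cd163 and Adgre1 then had r = -0.59. Without the 2 libraries farthest from the median of Cd163, r for Cd163 and Timd4 was 0.81. Cbr2 had no r above 0.38 with any other member over the 12 libraries.

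**Figure D4:**
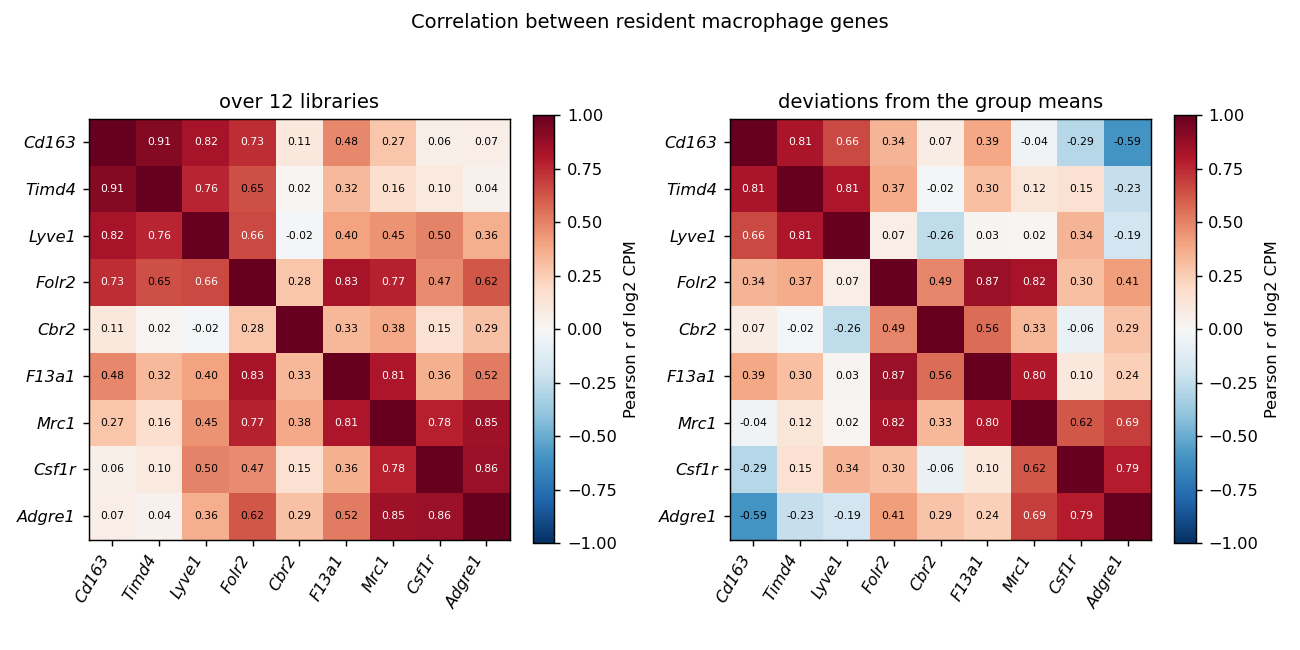
Pearson r of log2 CPM between the 9 genes, over 12 libraries (left) and for deviations from the 4 group means (right), coloured from -1 in blue to 1 in red. Cd163, Timd4 and Lyve1 form one block and Mrc1, Csf1r and Adgre1 another, with r of 0.91 for Cd163 and Timd4 and of 0.06 for Cd163 and Csf1r.

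The genes most like each member were looked for among 10483 protein-coding genes with a mean of at least 5 CPM, by Pearson r over the 12 libraries. Tek, the angiopoietin receptor of endothelial cells, came first for both Cd163 (r = 0.93) and Timd4 (r = 0.92). Hsd11b1 (0.89) was also among the nearest to Cd163, and Ppp1r10 (0.91) and Hpgd (0.91) followed for Timd4. Lyve1 was most like Arcn1 (0.95), Rps6ka5 (0.94) and Dpp4 (0.94), and Folr2 like Penk (0.90), Ccl24 (0.90) and Axl (0.87). For Csf1r the nearest were Itgam (0.93), a macrophage integrin, Nfam1 (0.93) and Tgfbr2 (0.92), and for Adgre1 Zfp719 (0.92), Il10ra (0.91) and Clec12a (0.91). Mrc1 was most like Dok2 (0.94), an adaptor of blood cells, Riok1 (0.92) and Medag (0.91). F13a1 was nearest to Adamts5 (0.92), Pcnp (0.90) and Zfp932 (0.87), and Cbr2 to Wif1 (0.87), Cetn2 (0.85) and Cyb5a (0.84). With so many genes searched over 12 libraries, values of this size are a description only.

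A further 20 genes of resident macrophages were listed, of which 18 passed the filter. For busulfan against control their median was -0.27 on the log2 scale, with 14 of 18 below 0, and 3 were lower at an unadjusted p under 0.05 (Vsig4, Mgl2 and Igf1). For control-FMT against control the median was -0.16, with 2 lower (Vsig4 and Ccl24). It was 0.11 for AOS-FMT against control and 0.48 for AOS-FMT against busulfan, with 6 of the 18 higher in the latter. Over all genes, 5.78% were lower at that p for busulfan against control and 3.74% for control-FMT against control. For AOS-FMT against busulfan 7.8% of all genes were higher. Vsig4, a complement receptor of resident macrophages, had 1.51, 18.0 and 8.12 CPM in AOS-FMT, 1.41, 0.25 and 1.38 in control-FMT, 1.13, 1.19 and 2.62 in busulfan, and 1.54, 23.6 and 20.8 CPM in control hearts. Its high libraries were those with an atrial score of 9.50 or more, in AOS-FMT and control alike, and control replicate 1 was as low as busulfan. Igf1, a growth factor, had 21.4, 46.1 and 28.9 CPM in AOS-FMT, 19.8, 27.7 and 28.5 in control-FMT, 15.1, 18.2 and 17.3 in busulfan, and 20.8, 37.0 and 37.7 CPM in control hearts. Gas6, which bridges dead cells to their receptors, was higher in AOS-FMT than in control at an unadjusted p under 0.05 (0.65 ± 0.21, adjusted p = 0.364).

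All 25 genes shared by macrophages were measured. Their median was -0.45 for busulfan against control, with 6 lower at an unadjusted p under 0.05 (Cd14, Pf4, C1qa, C1qb, C1qc and Fcgr3) and 1 higher (Cx3cr1). Over all genes, 5.78% were lower and 5.54% higher. For AOS-FMT against busulfan the median was 0.51, with 11 higher, against 7.8% of all genes. C1qa had 116, 167 and 106 CPM in AOS-FMT, 96.7, 116 and 83.9 in control-FMT, 77.5, 112 and 80.2 in busulfan, and 128, 113 and 159 CPM in control hearts (busulfan against control -0.57 ± 0.20, adjusted p = 0.344). C1qb, another subunit of the same complex, averaged 102 ± 25.4 CPM in AOS-FMT, 80.2 ± 18.2 in control-FMT, 68.7 ± 9.88 in busulfan and 99.5 ± 14.8 CPM in control hearts (SD, n = 3 each). Cx3cr1, the fractalkine receptor, was higher in busulfan (0.40 ± 0.15, adjusted p = 0.351) and in control-FMT (0.55 ± 0.15, adjusted p = 0.314) than in control. The median for control-FMT against control was 0.10 and that for AOS-FMT against control 0.13. Cd68, a lysosomal protein, had 29.7, 26.8 and 25.01 CPM in AOS-FMT, 28.9, 67.8 and 21.1 in control-FMT, 19.1, 27.6 and 26.3 in busulfan, and 22.4, 24.5 and 36.3 CPM in control hearts. The one high library of Cd68 was control-FMT replicate 2, the library lowest in Cd163, Timd4, Lyve1 and Folr2.

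Genes around the CSF1 receptor gave a median near 0 for busulfan against control. Over 12 ligands, regulators and downstream genes it was 0.02 for busulfan against control, 0.16 for control-FMT against control and 0.20 for AOS-FMT against control. Csf1 averaged 78.3 ± 12.7 CPM in AOS-FMT, 73.3 ± 3.3 in control-FMT, 82.0 ± 4.4 in busulfan and 79.5 ± 9.5 CPM in control hearts (SD, n = 3 each). Il34 averaged 4.75 ± 0.58 in AOS-FMT, 5.61 ± 0.96 in control-FMT, 5.55 ± 0.66 in busulfan and 4.52 ± 0.94 CPM in control hearts. Spi1, which encodes PU.1, averaged 18.1 ± 4.4 in AOS-FMT, 18.9 ± 4.1 in control-FMT, 13.9 ± 2.3 in busulfan and 16.4 ± 2.0 CPM in control hearts. For each of the 3 genes the ranges of every group given busulfan overlapped that of control. Of the 12, Cebpa alone was lower in busulfan than in control at an unadjusted p under 0.05, against 5.78% of all genes.

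Partner genes of the uptake receptors were listed as well. For 12 genes of haemoglobin and iron handling, downstream of the uptake that Cd163 serves, the median for busulfan against control was -0.02. Hmox1, haem oxygenase, averaged 23.1 ± 5.8 CPM in AOS-FMT, 23.9 ± 9.7 in control-FMT, 18.1 ± 4.4 in busulfan and 15.1 ± 1.7 CPM in control hearts. It was higher in AOS-FMT and in control-FMT than in control at an unadjusted p under 0.05. Slc40a1, the iron exporter, averaged 12.1 ± 1.6 in AOS-FMT, 18.0 ± 10.8 in control-FMT, 12.4 ± 5.0 in busulfan and 9.90 ± 2.6 CPM in control hearts (SD, n = 3 each). Blvrb, a biliverdin reductase, averaged 26.4 ± 5.9 in AOS-FMT, 23.2 ± 0.79 in control-FMT, 22.1 ± 2.1 in busulfan and 28.4 ± 5.7 CPM in control hearts. For dead-cell uptake, the role of Timd4, 13 of 15 listed genes were measured, with a median of 0.04 for busulfan against control. Axl, a receptor for Gas6, had 135, 162 and 118 CPM in AOS-FMT, 115, 109 and 115 in control-FMT, 89.5, 108 and 115 in busulfan, and 139, 147 and 192 CPM in control hearts. It was lower at an unadjusted p under 0.05 in busulfan and in control-FMT than in control. Mertk averaged 8.46 ± 1.27 in AOS-FMT, 7.75 ± 1.56 in control-FMT, 8.75 ± 0.78 in busulfan and 7.74 ± 1.90 CPM in control hearts.

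Monocyte and antigen-presentation genes were set beside the members. Whether these genes came from recruited cells in these hearts was not tested. Of 13 measured monocyte genes, all were above 0 for AOS-FMT against busulfan, with a median of 0.62. At an unadjusted p under 0.05, 7 were higher, against 7.8% of all genes. For busulfan against control 10 of the 13 were below 0, as all 9 members were, with a median of -0.29. There 1 was lower at that p, against 5.78% of all genes. For AOS-FMT against busulfan 1 of the 13 was called, Hp (2.35 ± 0.36, edgeR adjusted p = 0.0457), where edgeR called 0.0445% of all genes. Hp encodes haptoglobin, the plasma protein whose complexes Cd163 takes up. Hp is also made by liver and fat, and the sum of the liver genes was above that of busulfan in every AOS-FMT library. Ccr2, the receptor of recruited monocytes, had 8.72, 11.2 and 5.12 CPM in AOS-FMT, 7.13, 10.1 and 6.04 in control-FMT, 3.92, 4.58 and 4.40 in busulfan, and 3.85, 6.76 and 8.88 CPM in control hearts. Another pair of monocyte genes had low levels, Ly6c2 at 1.27 to 5.82 CPM and Plac8 at 0.55 to 6.65 CPM, where every pair of groups overlapped except, for Plac8, busulfan (0.76 to 2.12 CPM) and control (2.31 to 4.76 CPM). Over 9 MHC class II genes the median was -0.52 for busulfan against control, with 4 lower at an unadjusted p under 0.05 (5.78% of all genes). It was 0.20 for control-FMT against control and 0.29 for AOS-FMT against control, with all 9 above 0 in both. H2-Aa had 118, 179 and 130 CPM in AOS-FMT, 110, 166 and 92.7 in control-FMT, 65.3, 62.8 and 65.04 in busulfan, and 134, 91.6 and 140 CPM in control hearts. Cd74, the invariant chain, had 293, 357 and 261 CPM in AOS-FMT, 302, 427 and 234 in control-FMT, 190, 170 and 184.5 in busulfan, and 271, 221 and 288 CPM in control hearts. H2-Ab1 averaged 99.7 ± 24.5 in AOS-FMT, 106 ± 37.4 in control-FMT, 54.4 ± 4.7 in busulfan and 86.6 ± 15.4 CPM in control hearts (SD, n = 3 each). In both FMT groups H2-Aa thus overlapped control, where Cd163 and Timd4 did not.

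Markers of other cells that express some members were set beside them. Lyve1 is also a gene of lymphatic vessels, and all 10 listed lymphatic genes were measured, summing to 237 to 286 CPM in AOS-FMT, 271 to 288 in control-FMT, 239 to 251 in busulfan and 202 to 215 CPM in control hearts. Control was thus lowest in this sum and among the highest in Lyve1. Prox1, the defining lymphatic factor, was 0.19 ± 0.16 for busulfan against control. Of 9 platelet genes, 5 were measured. All 5 were lower than in control at an unadjusted p under 0.05 in busulfan (5.78% of all genes) and in control-FMT (3.74%). In AOS-FMT 4 of the 5 were lower than in control at that p (3.44%). All 9, measured or not, summed to 4.53 to 14.5 CPM in AOS-FMT, 5.65 to 6.73 in control-FMT, 5.33 to 6.02 in busulfan and 6.59 to 66.2 CPM in control hearts. F13a1, which platelets also carry, had its lowest control value in replicate 2, where the platelet sum was highest. Cd163 and Timd4 mark liver macrophages too, and 4 of 7 Kupffer cell and sinusoid genes were measured, with all 7 summing to 1.43 to 5.41 CPM in AOS-FMT, 2.19 to 2.59 in control-FMT, 1.78 to 3.92 in busulfan and 2.23 to 6.23 CPM in control hearts. Clec4f, the defining Kupffer gene, was at 0 in control-FMT replicates 1 and 3 and in control replicate 1, and at 3.34 and 0.87 CPM in the other two control libraries. In AOS-FMT Clec4f had 0.17, 1.55 and 1.54 CPM. At an unadjusted p under 0.05 it was lower than in control in busulfan (5.78% of all genes) and control-FMT (3.74%). It was higher at that p in AOS-FMT than in control-FMT (3.88%). In control replicates 1, 2 and 3, Cd163 had 17.8, 20.1 and 17.1 CPM where Clec4f had 0, 3.34 and 0.87 CPM. The 12 liver genes summed to 129 to 753 CPM in AOS-FMT, 63.9 to 106 in control-FMT, 56.3 to 86.2 in busulfan and 57.2 to 154 CPM in control hearts. The part of lymphatic, platelet and Kupffer cell content in the members' differences was not tested.

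All 10 listed fibroblast genes were measured. For busulfan against control their median was -0.65, with 6 lower at an unadjusted p under 0.05, against 5.78% of all genes. For AOS-FMT against busulfan it was 0.72, with 9 higher, against 7.8% of all genes. All 9 members, Folr2 and Lyve1 among them, had the same signs in these 2 comparisons. For AOS-FMT against control the fibroblast median was 0.08, where Folr2 was -0.05 ± 0.22 and Lyve1 -0.13 ± 0.31. For control-FMT against busulfan it was 0.34, where Folr2 was -0.07 ± 0.23 and Lyve1 -0.004 ± 0.33. These differences of Folr2 and Lyve1 were within their SE and turned sign on TPM. The fibroblast genes summed to 5307 to 10376 CPM in AOS-FMT, 4711 to 5685 in control-FMT, 3866 to 5244 in busulfan and 5497 to 8988 CPM in control hearts. The 6 listed erythroid genes, 5 of which passed the filter, summed to 5712 to 8438 CPM in AOS-FMT, 3600 to 6507 in control-FMT, 2506 to 4744 in busulfan and 3172 to 14721 CPM in control hearts. Other blood and fat cells left few reads: the 8 T and NK cell genes found in the table, 5 of which passed the filter, summed to 5.45 to 15.6 CPM in AOS-FMT, 3.62 to 12.7 in control-FMT, 3.89 to 6.87 in busulfan and 2.65 to 4.20 CPM in control hearts. Sums over the 5 B cell genes in the table, 3 of which passed the filter, and over the 8 neutrophil genes, 2 of which passed, stayed under 10 CPM in every library. The 6 listed adipocyte genes, 4 of which passed the filter, summed to 5.34 to 31.3 CPM in AOS-FMT, 3.03 to 29.9 in control-FMT, 0.44 to 6.597 in busulfan and 2.40 to 16.3 CPM in control hearts. The part of fibroblast, fat and blood content in the members' differences was not tested.

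Atrial content moved with several members, and the 7 atrial genes summed to 1917 to 26923 CPM in AOS-FMT, 457 to 4233 in control-FMT, 289 to 3248 in busulfan and 2065 to 19002 CPM in control hearts. With the atrial score as a covariate in edgeR, Cd163 was -1.13 in AOS-FMT (adjusted p = 0.334), -1.61 in control-FMT (adjusted p = 0.470) and -1.46 in busulfan (adjusted p = 0.684), each against control. Timd4 was -1.07 in AOS-FMT (adjusted p = 0.133), -0.98 in control-FMT (adjusted p = 0.522) and -0.58 in busulfan (adjusted p = 0.801). Atrial scores were alike in AOS-FMT (6.58 to 10.4) and control (6.06 to 10.3), so the covariate could hardly move that contrast. Without the covariate, Cd163 was -1.12 in AOS-FMT, -2.13 in control-FMT and -1.98 in busulfan. Timd4 without it was -1.08 in AOS-FMT, -1.57 in control-FMT and -1.18 in busulfan. Lyve1 kept less, with -0.32 for busulfan against control (adjusted p = 0.849) and 0.21 for AOS-FMT against busulfan (adjusted p = 1). Folr2 had -0.63 for busulfan against control (adjusted p = 0.801) and 0.58 for AOS-FMT against busulfan (adjusted p = 1). Cd163 in AOS-FMT was then 0.33 above busulfan and 0.48 above control-FMT, with an adjusted p of 1 for both. For Timd4 in AOS-FMT against busulfan the sign turned, to -0.49.

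One library of each group happened to have a like atrial score, between 6.06 and 7.28: AOS-FMT replicate 1, control-FMT replicate 3, busulfan replicate 3 and control replicate 1. These were singled out after their values were seen and, with 1 library a group, carry no test. Cd163 had 8.47 CPM in the AOS-FMT, 5.78 in the control-FMT, 6.68 in the busulfan and 17.8 CPM in the control library. Timd4 had 2.85 CPM in the AOS-FMT, 3.02 in the control-FMT, 3.64 in the busulfan and 4.79 CPM in the control library. Folr2 had 29.9 CPM in the AOS-FMT, 15.3 in the control-FMT, 17.8 in the busulfan and 25.9 CPM in the control library, and Lyve1 had 21.2 CPM in the AOS-FMT, 16.3 in the control-FMT, 17.4 in the busulfan and 17.5 CPM in the control library. Among these 4 libraries the control one was highest in Cd163 and in Timd4. Every control library lay above every other library in both genes, so any choice of libraries would have given this. It therefore says nothing about atrial content. In Lyve1 the control library was level with the busulfan one.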

How the data were processed

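The deposited table holds estimated counts, TPM and FPKM per gene and library, per the file headers; the FPKM and the group means that the authors deposited were not used. The submitters' processing notes name Bowtie 0.12.2 and mm10. Counting tool, strand, annotation and filters: not given in the sources used here. Estimated counts were whole within 1e-09 for 94.7% to 95.3% of genes and were rounded. Replicates differed beyond counting noise (chi-square per degree of freedom 7.81 to 61.9). filterByExpr left 13489 genes, scaled by TMM (factors 0.908 to 1.08). The main test was the quasi-likelihood test of edgeR 4.0.16 (R 4.3.3; robust, group only, 12 libraries), adjusted by Benjamini-Hochberg across the 13489 genes and called under 0.05, after a run on simulated data. The biological coefficient of variation was 18.6%. Alternatives were DESeq2 1.42.0, limma 3.58.1, other scalings, covariates and left-out libraries. Of the IDs, 17487 matched RefSeq genes of GRCm38.p6. Named are the members, the first 3 measured genes of the lists described and called list genes. Other genes named at an unadjusted p were chosen after their values were seen. Members and lists were chosen with earlier results of these data known. One gene among those most like a member is not reported here.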

Additional observations from a re-analysis of the deposited data

How the results depend on the processing

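Under another test, scaling, filter, covariate or unit, 550 log2 fold changes of members kept their sign and their side of the threshold, 40 turned sign and 4 became calls. With 1 library left out, 624 kept both, 23 turned sign and 1 became a call. The 4 calls were those of DESeq2, 2 members in busulfan against control and 2 in control-FMT against control, where edgeR called 0. DESeq2 called 4 for any difference among groups. Leaving out a library gave 0 to 1 members called for busulfan against control and 0 to 1 for any difference, the 1 being Cd163 without control-FMT replicate 2. DESeq2 called 119 genes in all for busulfan against control, edgeR 8.

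On TPM the median of all genes moved to 0.17 in control-FMT and 0.19 in AOS-FMT, each against control, so that differences near 0 turned. With a pseudocount of 0.1, then 1, control-FMT against control was 0.10 and 0.0938 for Mrc1, 0.17 and 0.16 for Csf1r and 0.0394 and 0.0344 for Adgre1. AOS-FMT against control was 0.13 and 0.12 for Lyve1 and 0.17 and 0.16 for Folr2. Control-FMT against busulfan was 0.0792 and 0.0711 for Lyve1, 0.00888 and 0.00923 for Folr2 and 0.0332 and 0.0321 for F13a1. With no scaling beyond library size, where the median of all genes reached 0.14 for AOS-FMT against busulfan, control-FMT against busulfan was 0.0766 for Lyve1, 0.0135 for Folr2 and 0.0326 for F13a1, AOS-FMT against control was 0.0450 for Folr2, and control-FMT against control 0.0080 for Csf1r. With the 6 libraries compared alone, Lyve1 was 0.00156 for control-FMT against busulfan.

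The liver score does not overlap between control and the rest, so as a covariate it takes up the contrast with control. Busulfan against control was then 0.0114 for Mrc1, 0.13 for F13a1, 0.0469 for Cbr2, 0.0326 for Csf1r and 0.11 for Adgre1. Control-FMT against control was 0.22 for Mrc1, 0.11 for F13a1, 0.26 for Csf1r and 0.32 for Adgre1. AOS-FMT against control was 0.53 for Folr2 and 1.16 for Cbr2, and AOS-FMT against control-FMT 0.24 for Cbr2. With the atrial score, Timd4 was -0.49 for AOS-FMT against busulfan and -0.0926 against control-FMT, control-FMT against control was -0.16 for Cbr2 and 0.11 for Csf1r, and Lyve1 was 0.0307 for control-FMT against busulfan; the cause of the other sign changes was not tested. At an unadjusted p under 0.05, the atrial covariate left 2 of 4 members lower in busulfan than in control, 2 of 5 higher in AOS-FMT than in busulfan and 0 of 4 higher than in control-FMT.

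With 1 library left out, control-FMT against busulfan ran from -0.00579 to 0.32 for Adgre1, -0.47 to 0.32 for Cd163, -0.15 to 0.0920 for F13a1, -0.27 to 0.0648 for Folr2 and -0.19 to 0.26 for Lyve1. Control-FMT against control ran from -0.32 to 0.0629 for Adgre1, -0.12 to 0.40 for Cbr2, -0.21 to 0.0758 for Csf1r and -0.18 to 0.0703 for Mrc1. AOS-FMT against control ran from -0.51 to 0.0337 for Cbr2, -0.22 to 0.22 for Folr2 and -0.35 to 0.28 for Lyve1. Busulfan against control ran from -0.43 to 0.0247 for F13a1, and AOS-FMT against busulfan from -0.0193 to 0.21 for Timd4.

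The labels do not say that libraries of the same number belong together. Deviations of same-numbered libraries had a median r of 0.12 over 18 pairs (-0.16 to 0.45), with 10 pairs over 0.1. Over 36 other pairs the median was -0.04, with 8 over 0.1, and 4 of 12 libraries went best with their own number. Whether libraries of the same number share a batch was not tested. With the replicate block 0 members were called in every comparison, and Lyve1 was 0.0199 for control-FMT against busulfan.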
